A study of Homo sapiens with 6 samples.

Results

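The enzymes described here are the oxygen-dependent demethylases of histones, DNA and RNA and their nearest relatives, measured as transcripts in colorectal cancer stem cells with and without PSCA siRNA. They are 40 genes of the KDM, TET, ALKBH and JMJD families and a few further dioxygenases, taken by gene symbol from a deposited table of 58735 genes, and every one of the 40 has a row in that table. The cells were HCT116SCs, a fraction sorted by magnetic beads for CD44 and CD326 (the product of EPCAM) from HCT116, an established human colorectal carcinoma line, and grown as tumor spheres without serum, in the presence of EGF, bFGF and B27. The NC group consisted of HCT116SCs labelled wild type and transfected with a negative control siRNA, and the siPSCA group of the same cells labelled as PSCA knockdown and transfected with siRNA against PSCA, which encodes a surface protein anchored by a lipid. Each group had 3 RNA libraries, and all 6 were made 48 h after a liposomal transfection. The model was a single line, and the siRNA sequence used for RNA sequencing is not named in the sources used here.

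All of these enzymes carry a double-stranded beta-helix fold that holds ferrous iron, and they use molecular oxygen and 2-oxoglutarate to hydroxylate a substrate, releasing succinate and carbon dioxide. Hydroxylation of a methyl group lets it leave as formaldehyde, which is how the Jumonji C (JmjC) histone demethylases and the AlkB enzymes remove methyl marks, whereas the TET enzymes oxidise 5-methylcytosine stepwise. Some of the genes, KDM3A among them, are known targets of the hypoxia-inducible factors, and in tumors the family connects oxygen and metabolite supply to chromatin and RNA modification.

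Reads on genes ranged from 16099716 to 17302219 per library, and values are FPKM, reads divided by gene length and library total, so that levels of different genes can be set side by side. The targeted transcript, PSCA, had 4, 12 and 15 reads in NC and 9, 9 and 7 reads in siPSCA, and does not tell the groups apart (log2 fold change -0.07, SE, the standard error, 0.12, adjusted p = 0.728, limma), and the groups rest on the labels. The titles of siPSCA 2 and siPSCA 3 carry other numbers after HCT, while their remaining labels name HCT116. Nothing in the labels says that the libraries came from separate cultures, so p-values measure the spread between libraries, which may be technical. NC 3 stood apart from NC 1 and NC 2 in a way that tracked GC content (Spearman correlation of -0.56 over genes). The siPSCA libraries also differed among themselves in this respect, from 0.30 in siPSCA 1 to -0.38 in siPSCA 3. The difference between the groups tracked GC content as well (0.66 over genes), so each fold change below is also given, where it matters, after a smooth trend on GC content and length had been removed. Of the sort markers, the FPKM of CD44 was 82.6 ± 4.36 (SD, n = 3) in NC and 60.7 ± 1.51 in siPSCA and that of EPCAM 107 ± 14.4 and 95.0 ± 2.10. The fall of CD44 had an adjusted p of 0.00193 (log2 fold change -0.44, limma), and that of EPCAM 0.199 (-0.16). The summed FPKM of 8 colorectal epithelial markers lay between 335 and 364 in NC and between 348 and 362 in siPSCA, with LGR5 and VIL1 near 0. Most of that sum was KRT8 and KRT18, and single markers did change. At an adjusted p under 0.05 (limma), CDH1 (log2 fold change -0.60) and PROM1 (-0.59) were lower in siPSCA. CDX2 (0.70) and KRT8 (0.22, and -0.02 with the trend removed) were higher, while KRT18 and KRT20 did not pass. For 8 leukocyte, endothelial and fibroblast markers the sums lay between 3.56 and 6.03 and between 6.22 and 6.74, nearly all of it COL1A1, and CD3E had 0 reads.

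Of the 40 genes, 37 had a mean FPKM of at least 1 and were tested with limma on log2(FPKM + 1), a scale on which the change of weakly expressed genes is understated. With an adjusted p under 0.05 over all 13796 genes tested, 20 of the 37 (54.1%) were called, against a background of 50.7% of all genes. The calls divided into 8 higher in siPSCA (21.6%, background 26.6%) and 12 lower (32.4%, background 24.2%). Where the unadjusted p had to be under 0.05 and the log2 fold change to exceed 0.5 in size, 5 of the 37 were higher and 7 lower, where the backgrounds were 14.7% and 10.2% of all genes. The 3 values of one group lay wholly above or below those of the other for 25 of the 37, a background of 64.5%. The median log2 fold change was 0.01 over the 37 and 0.01 over all genes. As a list, therefore, the enzymes were called about as often as any expressed genes, and the largest changes belonged to a few of them. In RNA of whole cultures, fewer cells of one kind and less RNA per cell cannot be told apart.

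**Figure D1:**
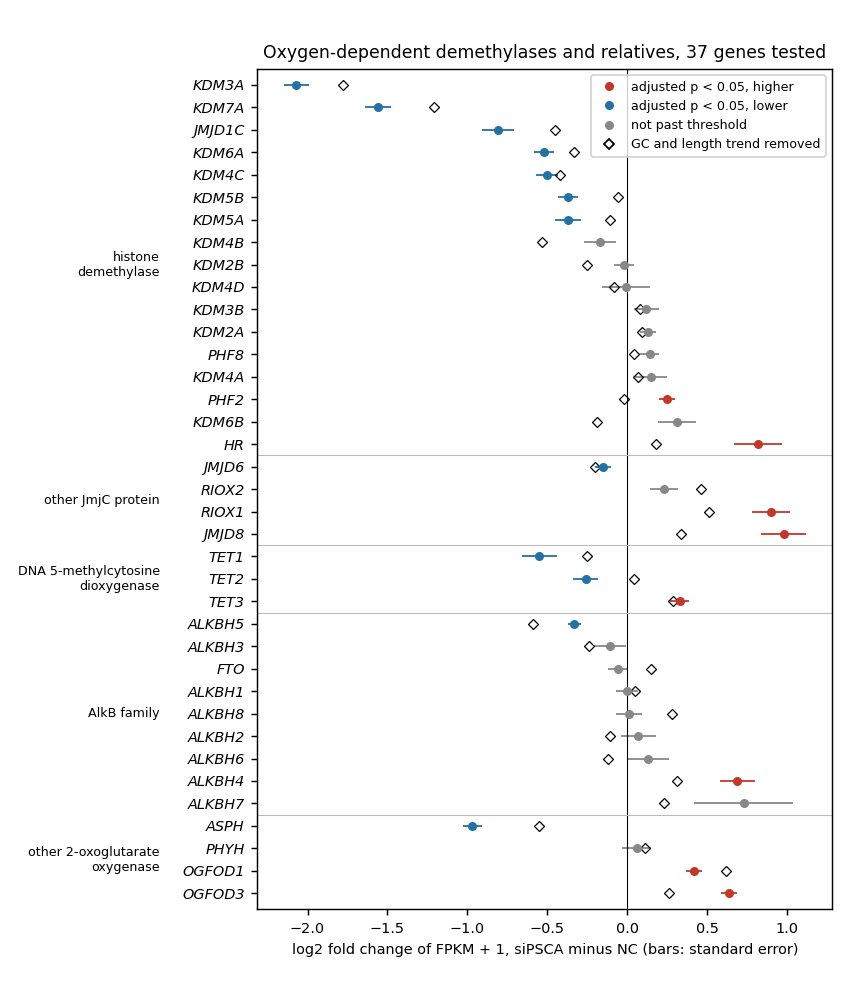
Log2 fold change of FPKM + 1, siPSCA minus NC (horizontal axis), for the 37 genes tested, grouped by role; filled points with bars are the limma estimate and its standard error from 3 against 3 libraries, and open diamonds the estimate with the GC and length trend removed. KDM3A (-2.07) and KDM7A (-1.56) lie far to the left of the other genes on either estimate.

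Of the 17 histone demethylases, all tested, 7 were called lower (41.2%, background 24.2%) and 2 higher (11.8%, background 26.6%). The median log2 fold change was -0.02, and their summed FPKM was 159.5, 164 and 171 in NC and 134, 133 and 134 in siPSCA. The drop in this sum lay mostly in the KDM3 family.

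KDM3A (ENSG00000115548, GRCh38 chr2:86440647-86492716, plus strand) removes mono- and dimethyl marks from H3K9 and is a textbook hypoxia-inducible transcript. Its FPKM was 22.3, 23.1 and 26.7 in NC 1, NC 2 and NC 3 and 4.87, 4.81 and 5.12 in siPSCA 1, siPSCA 2 and siPSCA 3. The groups were far apart, and the spread inside each was small. The mean went from 24.0 ± 2.34 (SD, n = 3) to 4.93 ± 0.167, a ratio of 0.206, with a log2 fold change of -2.07 (SE 0.08, adjusted p = 9.42e-05, limma). Only 6 of the 13796 genes had a more negative log2 fold change. Within the list KDM3A went from rank 3 by level in NC to rank 26 in siPSCA. With the trend removed the log2 fold change was -1.78 (adjusted p = 1.16e-05), and without NC 3 it was -2.00. For single genes with 3 libraries against 3, an exact permutation test cannot give a p below 0.1, and KDM3A reached that value.

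KDM3B, the closest relative of KDM3A and likewise an H3K9 demethylase, had an FPKM of 22.4, 22.3 and 26.5 in NC and 26.0, 25.0 and 26.5 in siPSCA. These groups overlapped, and its log2 fold change of 0.12 (SE 0.08, adjusted p = 0.235, limma) did not pass the test, although without NC 3 it was 0.20 with an adjusted p of 0.00782. JMJD1C (ENSG00000171988, chr10:63167221-63521850, minus strand), the remaining KDM3 gene and a coregulator of transcription factors, had an FPKM of 16.4, 17.1 and 17.5 in NC and 7.84, 10.0 and 10.2 in siPSCA. Every siPSCA library lay below every NC library, with siPSCA 1 the lowest. Its log2 fold change was -0.81 (SE 0.10, adjusted p = 0.00195, limma), and -0.45 with the trend removed.

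KDM3A and KDM3B were thus at equal levels in NC and 5 times apart or more in siPSCA. The log2 ratio of KDM3A to KDM3B, which does not depend on the library total, was -0.01, 0.05 and 0.01 in NC but -2.42, -2.38 and -2.37 in siPSCA, a difference of -2.40 (exact permutation p = 0.1, the smallest possible, 2-sided). KDM3A supplied 36.4% to 37.7% of the summed FPKM of the family in NC and 12.1% to 12.6% in siPSCA. KDM3B went from 35.7% to 37.5% in NC up to 62.8% to 67.2% in siPSCA. The family sum itself fell from 61.1, 62.5 and 70.7 to 38.7, 39.8 and 41.9.

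**Figure D2:**
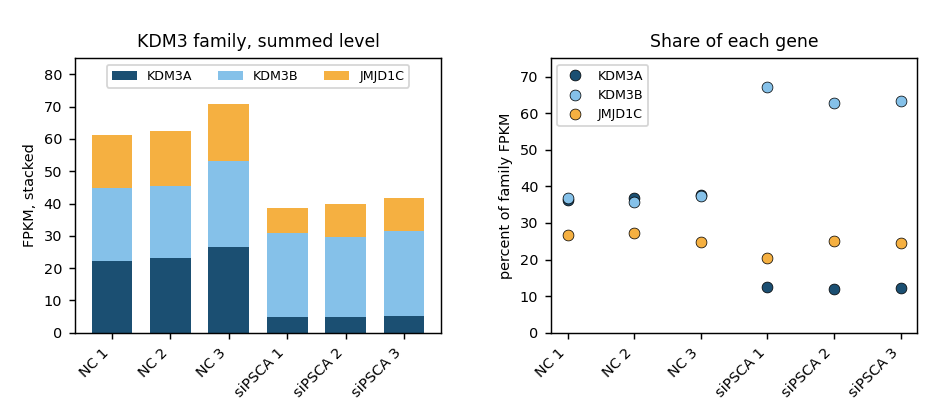
Left, FPKM of KDM3A, KDM3B and JMJD1C stacked for each of the 6 libraries; right, the share of each gene in that sum in percent. The sum lies between 61.1 and 70.7 in NC and between 38.7 and 41.9 in siPSCA, and the share of KDM3A goes from 36.4% to 37.7% in NC to 12.1% to 12.6% in siPSCA.

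KDM7A (ENSG00000006459, chr7:140084746-140177035, minus strand) encodes a PHD finger demethylase of H3K9me2 and H3K27me2. Its FPKM was 9.91, 10.4 and 11.8 in NC and 3.01, 2.70 and 3.17 in siPSCA. All siPSCA values lay at less than 1 unit from each other and far below the NC values. The mean went from 10.7 ± 0.997 (SD, n = 3) to 2.96 ± 0.239, a ratio of 0.276, with a log2 fold change of -1.56 (SE 0.08, adjusted p = 0.000251, limma), place 43 among the falls of all genes. With the trend removed the value was -1.21. Its relatives with a PHD finger did not follow. PHF2, a demethylase of H3K9me2, rose from 9.70 to 11.7 (log2 fold change 0.25, adjusted p = 0.00845), a change that went to -0.02 with the trend removed, and PHF8, which acts on H3K9 and H4K20, had a log2 fold change of 0.14 and did not pass the test.

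The KDM6 enzymes remove di- and trimethyl marks from H3K27 and so oppose the Polycomb methyltransferase EZH2. KDM6A (ENSG00000147050, chrX:44873177-45112602, plus strand) had an FPKM of 7.18, 7.57 and 7.95 in NC and 4.94, 5.03 and 5.00 in siPSCA. It fell in every siPSCA library, to 0.659 times the NC mean, with a log2 fold change of -0.52 (SE 0.06, adjusted p = 0.00141, limma) and of -0.33 with the trend removed. KDM6B had an FPKM of 9.81, 10.6 and 7.42 in NC and 12.3, 11.2 and 11.3 in siPSCA. Although these groups do not overlap, NC 3 lay well below the other NC libraries, and the log2 fold change of 0.31 (SE 0.12, adjusted p = 0.0783, limma) did not pass the test. The direction of KDM6B depends on the GC trend, since with the trend removed it was -0.19 (adjusted p = 0.0315, and 0.0833 with a replicate block as well), and without NC 3 it was 0.17 (adjusted p = 0.0486). The log2 ratio of KDM6A to KDM6B was -0.45, -0.48 and 0.10 in NC and -1.31, -1.16 and -1.17 in siPSCA, without overlap, although both genes were lower once the trend was removed.

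The KDM4 enzymes act on H3K9me3, and some of them also on H3K36me3. KDM4C (ENSG00000107077, chr9:6720863-7175648, plus strand) had an FPKM of 4.60, 4.26 and 5.11 in NC and 2.98, 3.06 and 2.93 in siPSCA. It was lower in all siPSCA libraries, with a log2 fold change of -0.50 (SE 0.07, adjusted p = 0.00309, limma) and of -0.42 with the trend removed. KDM4B, like KDM3A a known hypoxia-inducible demethylase, had an FPKM of 9.06, 8.62 and 6.86 in NC and 7.14, 7.23 and 6.97 in siPSCA. NC 3 lay below every siPSCA library, so the groups overlapped and the log2 fold change of -0.17 (SE 0.10, adjusted p = 0.193, limma) did not pass the test. The call on KDM4B turns on that library and on the trend, because without NC 3 it was -0.28 (adjusted p = 0.00387) and with the trend removed -0.53 (adjusted p = 0.000327). KDM4A and KDM4D did not pass the test, at log2 fold changes of 0.15 and -0.01. For KDM4A the value was 0.06 without NC 1 and 0.24 without NC 3, where it was called (adjusted p = 0.0405), and 48.5% of its exonic bases are shared with other annotated genes, so reads could have been divided between them.

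The KDM5 enzymes remove methyl marks from H3K4, and of its genes in the list KDM5A and KDM5B fell by the same amount. KDM5B had an FPKM of 4.84, 5.14 and 5.23 in NC and 3.68, 3.48 and 3.95 in siPSCA. The groups were apart, with a log2 fold change of -0.37 (SE 0.06, adjusted p = 0.00537, limma). KDM5A went from a mean of 8.67 to 6.48, also a log2 fold change of -0.37 (adjusted p = 0.00977). Neither call survived removal of the GC and length trend, which left -0.06 for KDM5B (adjusted p = 0.440) and -0.11 for KDM5A (adjusted p = 0.121). KDM5C, another gene of the class that stood outside the 40, was more abundant than either, at 17.6 ± 1.23 (SD, n = 3) in NC and 18.0 ± 1.10 in siPSCA, and did not pass the test (log2 fold change 0.03, adjusted p = 0.767, limma). The KDM2 enzymes are demethylases of H3K36me2. KDM2B, a component of a Polycomb complex that binds unmethylated CpG islands, had an FPKM of 4.71, 4.34 and 4.72 in NC and 4.60, 4.42 and 4.48 in siPSCA, intermixed between the groups (log2 fold change -0.02, SE 0.06, adjusted p = 0.763, limma). KDM2A had a log2 fold change of 0.13 and did not pass the test (adjusted p = 0.0782), but was called without NC 3 (0.15, adjusted p = 0.0308) and under limma-voom (0.16, adjusted p = 0.0362).

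HR, the hairless corepressor and an H3K9 demethylase, rose most in this class on the scale tested. Its FPKM was 3.69, 3.63 and 2.26 in NC and 6.53, 6.34 and 5.99 in siPSCA. All siPSCA values lay above the NC values, and NC 3 was the lowest of all. The log2 fold change was 0.82 (SE 0.15, adjusted p = 0.00612, limma), but HR has the highest GC content of the 37 genes (65.7%), and with the trend removed the value was 0.18 (adjusted p = 0.0201, and 0.0625 with a replicate block as well).

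**Figure D3:**
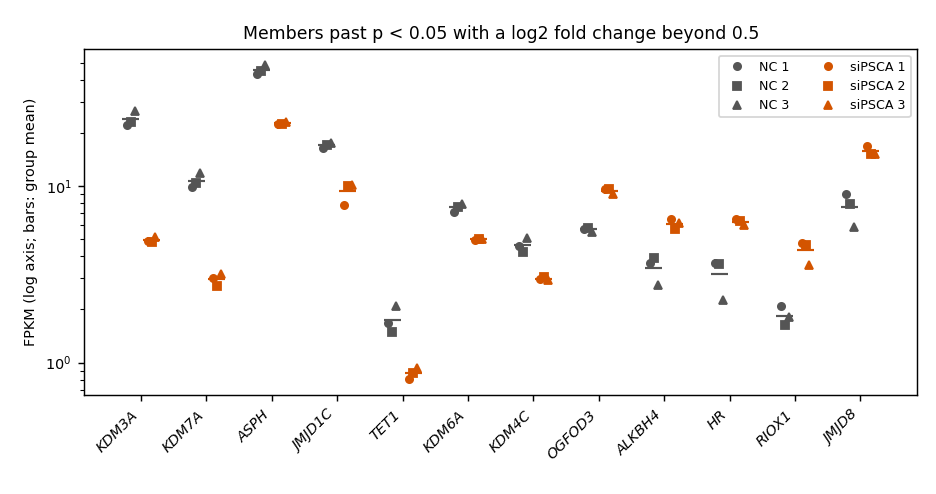
FPKM on a log axis in each of the 3 NC and 3 siPSCA libraries, with the group mean as a bar, for the 12 genes whose unadjusted p was under 0.05 and whose log2 fold change exceeded 0.5 in size. The groups do not overlap for any of the 12, which were picked on these same values. They did not overlap for 64.5% of all genes tested either. For KDM3A the siPSCA libraries lie between 4.81 and 5.12 against 22.3 to 26.7 in NC.

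Bases around short motifs in the promoters are shown next for 5 enzymes that were lower under every alternative tried and hold a match, and for TET2 as a contrast, since KDM3A and others of the class are known to respond to hypoxia-inducible factors. The motifs searched were ACGTG and GCGTG, the core letters bound by these factors, on both strands (CACGT and CACGC on the opposite one; ACGTG and CACGT overlap in CACGTG), in the 250 bases before each RefSeq gene start (GRCh38.p14). RefSeq entries were matched for 35 of the 40 genes, leaving HR, RIOX1, RIOX2, JMJD6 and ASPH without one. The lines give 30 bases around the matches nearest to the start, 5′ to 3′ on the strand of the gene, with the matches in capitals. They lie at chr2:86441332-86441361 (plus strand) for KDM3A, chr7:140177147-140177176 (minus) for KDM7A, chr9:6757930-6757959 (plus) for KDM4C, chrX:44873148-44873177 (plus) for KDM6A, chr17:18183798-18183827 (plus) for ALKBH5 and chr4:105145845-105145874 (plus) for TET2.
KDM3A: tccgggaggctgtGCGTGtcttgtgagagc
KDM7A: gccggcgccagagACGTGcgcgagacgcac
KDM4C: ggccccagcggtCACGTGacggcgcgcgcg
KDM6A: ggtcacggcggcgGCGTGgggttcgctgtg
ALKBH5: cggtggccggcagcactgcGCGTGcgcggt
TET2: ccccttctactcagccCACGTGgctaaagt
The pieces of KDM3A and KDM4C lie wholly in bases that GENCODE 29 annotates as exon of some transcript, so their position relative to the start depends on the gene model. That of ALKBH5 lies outside annotated exons but inside the gene, which begins at 18183078, so the same holds for it. A match was found for 8 of the 10 matched genes that were lower (GCGTG in 6, ACGTG in 4), for 4 of the 6 that were higher and for 8 of the 16 tested without a call. Of all 35116 RefSeq promoters 43.2% hold a match, 18.5% ACGTG and 32.2% GCGTG. Median promoter GC content was 62.2% in the lower, 78.2% in the higher and 61.6% in the uncalled genes against 58.0% in all promoters. The shares with GCGTG had the same order as these medians. Those with either motif and those with ACGTG did not, and both were largest in the lower genes. The part of promoter GC content was not tested. TET1, which also fell, holds neither motif in this window, and TET3, which rose, holds 5 matches. JMJD1C fell too, and no match was found for it. Its window (chr10:63269244-63269493, minus strand) lies inside the gene, which extends to 63521850. The bases before that outermost start were therefore not searched for JMJD1C.

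Among the other JmjC proteins, which mostly hydroxylate proteins and do not remove methyl groups, 2 of the 4 tested rose and 1 fell. The backgrounds were 26.6% and 24.2% of all genes, and 4 genes are too few to set against them. The median log2 fold change was 0.56, and 0.40 with the trend removed. RIOX1 (ENSG00000170468, chr14:73490964-73493392, plus strand), a nucleolar histidyl hydroxylase of a ribosomal protein, had an FPKM of 2.08, 1.63 and 1.82 in NC and 4.77, 4.66 and 3.55 in siPSCA. It was higher in all siPSCA libraries by a ratio of 2.35, with a log2 fold change of 0.90 (SE 0.12, adjusted p = 0.00223, limma) and of 0.51 with the trend removed (adjusted p = 0.0177, and 0.0514 with a replicate block as well). The rise rests on 69 to 85 reads per library in NC and 157 to 201 in siPSCA. Its relative RIOX2, also a ribosomal histidyl hydroxylase, had a log2 fold change of 0.23 that did not pass the test (adjusted p = 0.0662). With the trend removed the value for RIOX2 was 0.46 (adjusted p = 0.00272), and 27.6% of its exonic bases are shared with CRYBG3.

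JMJD8, a JmjC protein of the endoplasmic reticulum, rose by the largest amount of the called genes on the log2(FPKM + 1) scale, although the plain ratio was larger for RIOX1 (2.35 against 2.08), as was the log2 fold change with a pseudocount of 0.1, as TPM, under limma-voom and without NC 3. OGFOD1 had the largest rise once the trend was removed. The JMJD8 FPKM was 8.99, 7.96 and 5.86 in NC and 16.9, 15.2 and 15.3 in siPSCA. The groups were well apart, with a log2 fold change of 0.98 (SE 0.14, adjusted p = 0.00293, limma) and of 0.34 with the trend removed. However, 37.4% of its exonic bases lie opposite STUB1, and no strand is stated for the counting, so reads of these genes cannot be told apart in that stretch. JMJD6, a lysyl hydroxylase of splicing factors, had an FPKM of 10.9, 11.4 and 11.2 in NC and 9.88, 10.1 and 10.0 in siPSCA. The fall was small (log2 fold change -0.15, SE 0.05, adjusted p = 0.0367, limma), and its call was kept in only 1 of the 6 fits that left out a library. KDM8 and JMJD4 lay below the FPKM minimum, at means of 0.785 and 0.383 in NC and 1.19 and 0.845 in siPSCA, and did not pass the test in a fit without a minimum (adjusted p = 0.296 and 0.0655, limma). With a minimum of 0.1 JMJD4 was called higher (log2 fold change 0.41, adjusted p = 0.0341, limma), on 23 to 34 reads per library in NC and 50 to 71 in siPSCA, and 53.8% of its exonic bases lie opposite SNAP47.

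The TET enzymes, which oxidise 5-methylcytosine in DNA, moved in different directions, with 2 lower and 1 higher (backgrounds 24.2% and 26.6% of all genes). TET1 (chr10:68560656-68694482, plus strand) had an FPKM of 1.67, 1.50 and 2.09 in NC and 0.802, 0.878 and 0.934 in siPSCA. Its mean fell by a ratio of 0.497, on 242 to 335 reads per NC library and 126 to 158 per siPSCA library, with a log2 fold change of -0.55 (SE 0.11, adjusted p = 0.00920, limma). With the trend removed the value for TET1 was -0.25 and the call was lost (adjusted p = 0.0802). TET2 had an FPKM of 3.54, 3.63 and 4.04 in NC and 2.67, 3.13 and 3.05 in siPSCA. The groups were apart but near, with a log2 fold change of -0.26 (SE 0.08, adjusted p = 0.0323, limma), which was called in only 1 of the 6 fits that left out a library, not in the one without NC 3, and turned to 0.04 with the trend removed. TET3 had an FPKM of 6.32, 6.04 and 5.59 in NC and 7.96, 7.66 and 7.70 in siPSCA. It rose in every siPSCA library, with a log2 fold change of 0.33 (SE 0.06, adjusted p = 0.00585, limma) that was 0.29 both with the trend removed and without NC 3. The summed FPKM of the TET genes was 11.5, 11.2 and 11.7 in NC and 11.4, 11.7 and 11.7 in siPSCA, so the sum overlapped between the groups while the log2 ratio of TET2 to TET3 went from -0.84, -0.74 and -0.47 to -1.58, -1.29 and -1.33.

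The AlkB family, which repairs alkylated DNA and edits methyl marks on RNA, gave 1 call higher and 1 lower of 9 (22.2% called, background 50.7%), with a median log2 fold change of 0.01. ALKBH5, which removes N6-methyladenosine from messenger RNA, was the most abundant of them, with an FPKM of 37.9, 38.6 and 39.2 in NC and 31.3, 30.1 and 30.4 in siPSCA. It fell by a ratio of 0.793, with a log2 fold change of -0.33 (SE 0.04, adjusted p = 0.00238, limma), and -0.59 with the trend removed. It has the highest GC content of the enzymes that fell (54.9%). FTO, the other demethylase of N6-methyladenosine, had an FPKM of 2.82, 2.73 and 3.02 in NC and 2.76, 2.67 and 2.69 in siPSCA. The groups overlapped, and the log2 fold change of -0.06 (SE 0.06, adjusted p = 0.488, limma) did not pass the test. The log2 ratio of FTO to ALKBH5 was -3.75, -3.82 and -3.70 in NC and -3.51, -3.49 and -3.49 in siPSCA, so ALKBH5 stayed far more abundant in both groups.

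ALKBH4, known as a demethylase of actin, had an FPKM of 3.68, 3.90 and 2.74 in NC and 6.47, 5.74 and 6.17 in siPSCA. It rose in every siPSCA library, with a log2 fold change of 0.69 (SE 0.11, adjusted p = 0.00449, limma) and of 0.31 with the trend removed, and 25.3% of its exonic bases lie opposite ORAI2. ALKBH7, a mitochondrial relative, had a similar log2 fold change of 0.73 but did not pass the test (SE 0.31, adjusted p = 0.0948, limma). NC 3 had an FPKM of only 2.19 against 5.69 and 6.43 in NC 1 and NC 2, and without NC 3 the log2 fold change of ALKBH7 was 0.35 (adjusted p = 0.0166). The DNA repair enzymes ALKBH2 and ALKBH3, the nucleic acid demethylase ALKBH1, the tRNA modifier ALKBH8 and ALKBH6 had log2 fold changes of 0.07, -0.11, 0.00, 0.01 and 0.13 and overlapping groups.

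Of the remaining 2-oxoglutarate oxygenases, ASPH, the endoplasmic reticulum hydroxylase of aspartate and asparagine in EGF-like domains, was the most abundant gene of the whole list in NC. Its FPKM was 43.2, 45.2 and 48.5 in NC and 22.5, 22.6 and 23.2 in siPSCA. The level fell by a ratio of 0.499, with a log2 fold change of -0.97 (SE 0.06, adjusted p = 0.000298, limma) and of -0.55 with the trend removed. ASPH also encodes shorter proteins without the catalytic domain, which a value per gene does not separate. OGFOD1, a prolyl hydroxylase of a ribosomal protein, rose from 7.41 ± 0.170 (SD, n = 3) to 10.2 ± 0.331 (log2 fold change 0.42, adjusted p = 0.00182, limma). It was the one gene of low GC content (42.5%) among the rises, and with the trend removed the value was 0.62. OGFOD3 had an FPKM of 5.72, 5.81 and 5.50 in NC and 9.64, 9.57 and 9.02 in siPSCA. It rose in every siPSCA library, with a log2 fold change of 0.64 (SE 0.05, adjusted p = 0.000753, limma) and of 0.26 with the trend removed (adjusted p = 0.0325, and 0.0585 with a replicate block as well). PHYH, the peroxisomal phytanoyl-CoA hydroxylase, had a log2 fold change of 0.06 and did not pass the test. OGFOD2 lay below the minimum at 0.212 in NC and 0.446 in siPSCA (adjusted p = 0.134 without a minimum, limma), and 78.3% of its exonic bases are shared with other genes.

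Base composition differed between the rising and the falling enzymes. The 8 genes called higher had a median GC content of 58.5%, between 42.5% and 65.7%, and the 12 called lower 43.0%, between 38.5% and 54.9%, much as among all genes called higher (57.5%) and lower (41.1%). Over the 37 genes fold change and GC content had a Spearman correlation of 0.69, and of 0.27 once the trend was removed, given as a description because the genes share the same libraries. With the trend removed 19 of the 37 were called (39.6% of all genes), and 15 of these were among the 20 called before, all in the same direction. The calls on KDM5A, KDM5B, PHF2, TET1 and TET2 were lost and those on KDM4B, KDM6B, RIOX2 and ALKBH8 were gained. Called in the same direction under every alternative tried were 11 genes, of which KDM3A, KDM7A, ASPH, JMJD1C, KDM6A, KDM4C and ALKBH5 were lower and JMJD8, ALKBH4, OGFOD1 and TET3 higher. The share of all genes called under every alternative was not computed, so the count of 11 says nothing particular about these enzymes.

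**Figure D4:**
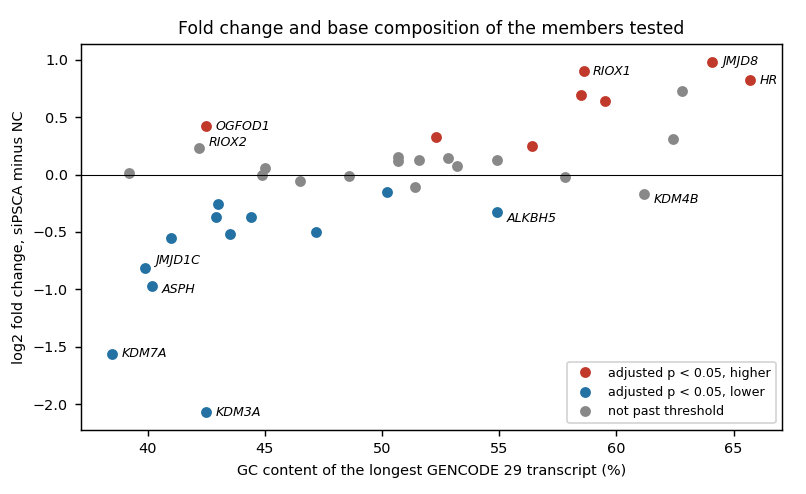
Log2 fold change, siPSCA minus NC, against the GC content in percent of the longest GENCODE 29 transcript for the 37 genes tested, coloured by call. Genes called lower lie mostly to the left (median 43.0%) and genes called higher to the right (median 58.5%), with OGFOD1 (42.5%) and ALKBH5 (54.9%) on the other side of their class.

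Ratios between relatives within a library were compared for 13 pairs. In 9 pairs the groups did not overlap, and the same held for 64.5% of all single genes tested. The share among pairs of unrelated genes was not computed, so the count of 9 says nothing particular about relatives. Each of the 9 had an exact permutation p of 0.1, the smallest possible, and an adjusted p of 0.144 over the pairs. No pair could therefore pass an adjusted threshold of 0.05. After KDM3A to KDM3B, the largest differences were -1.41 for KDM3A to JMJD1C, 0.96 for RIOX1 to RIOX2 and -0.94 for KDM6A to KDM6B on the log2 scale. The latter pairs differ widely in GC content, 58.6% against 42.2% for RIOX1 and RIOX2 and 43.5% against 62.4% for KDM6A and KDM6B. With the trend removed their members came close together, at log2 fold changes of 0.51 and 0.46 for RIOX1 and RIOX2 and of -0.33 and -0.19 for KDM6A and KDM6B, whereas KDM3A (-1.78) stayed far from KDM3B (0.08) and JMJD1C (-0.45). KDM5A and KDM5B moved together, with a log2 ratio of 0.77 ± 0.08 (SD, n = 3) in NC and 0.81 ± 0.07 in siPSCA.

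**Figure D5:**
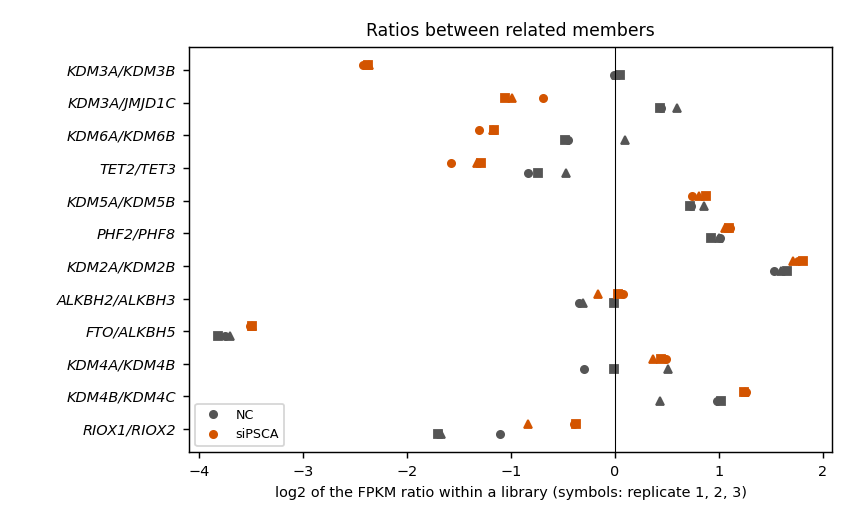
Log2 of the FPKM ratio within each library for 12 of the 13 pairs of related genes (OGFOD1 to OGFOD2 is left out because of the low level of OGFOD2); grey, NC and orange, siPSCA, with 3 libraries each. The ratio of KDM3A to KDM3B lies between -0.01 and 0.05 in NC and between -2.42 and -2.37 in siPSCA.

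The enzymes that write or read the same marks, or that supply or share the cosubstrate, were set beside the demethylases, each list with the share of all genes called (50.7%) as background. Of 23 histone lysine methyltransferases and Polycomb subunits 9 rose and 9 fell, with a median log2 fold change of 0.05. The largest rises were those of SUV39H1, which trimethylates H3K9 (0.79), and KMT5C, which methylates H4K20 (0.60, called in 3 of the 6 fits that left out a library, and -0.11 with the trend removed), and the largest falls those of the Polycomb subunit SUZ12 (-0.78) and of KMT2C, an H3K4 methyltransferase (-0.61). With the trend removed the median of the 23 was -0.06. The calls on EZH2, KMT2A, KMT2B, SETD1A, SETD1B, SETD2, SUV39H2, EHMT2, NSD3, DOT1L, KMT5B and KMT5C were then lost. EED, NSD1 and NSD2 were called higher in that fit. The flavin-dependent demethylases, which use oxygen but neither iron nor 2-oxoglutarate, had 1 call, a fall of KDM1B from 10.5 to 8.06 (-0.34, and -0.11 with the trend removed), and KDM1A did not pass the test. Of 6 genes of DNA methylation 3 rose and 1 fell, led by UHRF1, which guides the maintenance methyltransferase (0.59), and DNMT1, that methyltransferase itself (0.44), while MBD4, a glycosylase, fell (-0.34).

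Of the 16 tested writers and readers of N6-methyladenosine 2 rose and 8 fell, with a median log2 fold change of -0.22 that was -0.04 with the trend removed. The rises were RBM15B (0.63), a subunit of the methyltransferase complex, and the reader YTHDF2 (0.14, called in only 1 of the 6 fits that left out a library, and 0.11 without a call with the trend removed), and the largest falls were ZC3H13 (-0.62), another subunit, and the nuclear reader YTHDC1 (-0.53). Among 22 enzymes that make or use 2-oxoglutarate, succinate or fumarate 3 rose and 4 fell (median 0.02). The named changes were OGDH (0.37, and 0.09 without a call with the trend removed), the 2-oxoglutarate dehydrogenase, D2HGDH (0.61, and -0.05 with the trend removed), which oxidises D-2-hydroxyglutarate, GLUD1 (-0.55), which makes 2-oxoglutarate from glutamate, and the succinyl-CoA ligase subunit SUCLA2 (-0.24, and 0.05 with the trend removed).

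Further 2-oxoglutarate oxygenases outside the 40 genes had 0 rises and 3 falls of 6 tested by limma (0 rises also at an unadjusted p under 0.05 and by limma-voom on reads). The largest falls were EGLN1, from 16.5 to 8.35 (-0.91), and EGLN3, from 3.96 to 1.66 (-0.89), prolyl hydroxylases of the hypoxia-inducible factors and known targets of them. All 12 hypoxia reference transcripts fell, with a median log2 fold change of -1.19 and of -1.32 with the trend removed, led by NDRG1, a stress-responsive gene (-2.01), and PDK1, the kinase that restrains pyruvate dehydrogenase (-1.81). By plain ratio PDK1 fell more than NDRG1 (0.172 against 0.244). The summed FPKM of the 12 transcripts lay between 1015 and 1074 in NC and between 378 and 393 in siPSCA. This list was chosen with the fall of hypoxia transcripts in these libraries already known and is no independent evidence of it. The log2 fold change of KDM3A (-2.07) lay beyond the median of these transcripts, and that of KDM4B (-0.17) was nearer to 0.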

How the data were processed

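The authors deposited 1 table of FPKM values (reads per gene divided by gene length and library total) for 58735 genes on GRCh38, with gene positions of GENCODE 29. The libraries were made with the NEBNext Ultra RNA kit; the aligner, counting program and strand setting are not given in the sources used here. Multiplied by gene length, 100% of FPKM values were whole multiples of 1 read within 0.01, which gave the reads per gene. The SE and SD given come from the spread between libraries.
The members and all lists were chosen with earlier results of these data known. limma 3.58.1 in R 4.3.3 (lmFit, eBayes with trend) was fitted to log2(FPKM + 1) over the 13796 genes whose mean FPKM reached 1, with Benjamini-Hochberg adjustment, 2-sided. Every adjusted p of a gene is from limma. The trend was a spline with 5 degrees of freedom on GC content and on length, removed from each library. Summaries, exact permutation tests and figures were made in Python 3.11.15 (matplotlib 3.10.9, numpy 2.4.6, pandas 2.3.3). Alternatives were a pseudocount of 0.1, an FPKM minimum of 0.1 or none, TPM, median-ratio size factors, limma-voom on the recovered reads, removal of the GC and length trend, a replicate block, both together, and leaving out each library. The script was tested on simulated data with a spread between libraries set in advance, in which 200 of 13796 genes were shifted. It called 36 of the 200 (18.0%) at a log2 change of 0.5, with 2 false calls. At a log2 change of 1.0 it called 173 (86.5%), with 12 false calls. Far more genes, 7001, passed in the real data, so the adjusted threshold there was less strict and these shares do not carry over. A small change that did not pass the test may still have been missed.
Values per library are given for members past the adjusted threshold with a log2 fold change beyond 0.5 and, whatever their result, for KDM3A, KDM4B, KDM4C, KDM2B, KDM5B, KDM6B, JMJD6, TET1, TET2, TET3, FTO and ALKBH5, and from each list the 2 largest rises and falls past the threshold are named. KDM3B and ALKBH7 are shown by library in addition, chosen after their values were seen.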

Additional observations from a re-analysis of the deposited data

How the results depend on the processing

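Of 555 alternative values for single members, 486 kept their direction and their side of the threshold. With the GC and length trend removed, 7 members instead of 12 passed p under 0.05 with a log2 fold change beyond 0.5, and 1580 genes instead of 3434 over all genes. With the replicate block and the trend removal together these numbers were 7 and 1625, and 15 members and 4644 genes passed the adjusted threshold, without HR, RIOX1, OGFOD3 and KDM6B, which trend removal alone had called. Single libraries left out gave 18 to 26 members and 4627 to 7425 genes past the adjusted threshold (4627 without siPSCA 1, 4734 without siPSCA 2), the most of both without NC 3. The median of the members was -0.03 as TPM and ranged up to 0.06 without NC 2. Signs turned with the trend removed, with or without the block, for KDM6B (-0.19), PHF2 (-0.02), TET2 (0.04), ALKBH1 (0.05), ALKBH2 (-0.11), ALKBH6 (-0.12) and FTO (0.15). They turned for KDM4D (0.00 with a pseudocount of 0.1, 0.03 under limma-voom), ALKBH1 (0.02 under limma-voom) and ALKBH8 (-0.03 as TPM). With single libraries left out, log2 fold changes ranged from -0.10 to 0.15 for KDM4D, -0.06 to 0.06 for ALKBH1, -0.03 to 0.13 for ALKBH2, -0.05 to 0.06 for ALKBH8 and -0.01 to 0.12 for PHYH. As ratios of FPKM + 1, the difference was 0.00 for KDM5A to KDM5B and 0.16 for OGFOD1 to OGFOD2. The causes were not tested. Same-numbered libraries deviated together with correlations of 0.10, 0.01 and 0.13, so the numbers were not taken to pair them, and the replicate block left 19 members and 6725 genes called, losing JMJD6. limma-voom on the recovered reads called 24 members and 7380 genes (53.5% of those tested). Removing the trend left 5466 genes called.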
